A study of Arabidopsis thaliana with 36 samples.

Results

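The effect of IMA1 on the root response to the bacterial peptide flg22 was examined under Fe deficiency in Arabidopsis thaliana. It was measured as the flg22 effect in IMA1ox minus the flg22 effect in Col-0 wild type (WT), both Fe-deficient, and it uses 12 of the 36 RNA sequencing libraries of the series. The 4 groups of 3 libraries were Fe-deficient IMA1ox with flg22, Fe-deficient IMA1ox without flg22, Fe-deficient WT with flg22 and Fe-deficient WT without flg22. IMA1ox carries the transgene UBQ10::mCitrine-IMA1, in which the promoter of a ubiquitin gene drives IMA1 fused to a yellow fluorescent protein. Seedlings were 7 days old when they were moved from plates with Fe to liquid medium for 24 h. The medium held 50 µM FerroZine, a chelator that binds ferrous Fe, with or without 100 nM flg22. Each library was made from a pool of about 15 roots, and every p-value below rests on the spread among pools. The labels name 1 overexpressor genotype and do not state how many independent lines it holds. The other 24 libraries held the same genotypes and treatments with 75 µM Fe, and the flagellin receptor mutant fls2.

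IMA peptides are small peptides made when Fe is short, and they stabilise upstream bHLH transcription factors by occupying the ubiquitin ligase BTS. Those factors switch on the bHLH Ib genes, whose products pair with the bHLH factor FIT to turn on ferric chelate reduction, Fe2+ import and coumarin secretion in the root epidermis. flg22 is the part of bacterial flagellin that the receptor kinase FLS2 and its partner BAK1 perceive at the cell surface, which starts kinase signalling, an oxidative burst and defence gene expression.

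Library totals of the 12 ran from 28130566 to 36839145 counts. Levels are given in CPM, the count relative to a library size scaled by the trimmed mean of M values (TMM), listed for libraries 1, 2 and 3 of each group. Differences are log2 values with a standard error, and a gene was called where the edgeR quasi-likelihood test with Benjamini-Hochberg adjustment over 20354 genes gave an adjusted p under 0.05. 2 libraries stood apart from their groups in the genes that respond to flg22. The mean log2 level of the genes that flg22 raised at least 2-fold in Fe-sufficient WT was 2.11 in IMA1ox flg22 1, against 2.89 and 2.7 in IMA1ox flg22 2 and 3. In WT untreated 3 the same mean was 1.51, against 1.02 and 1.26 in WT untreated 1 and 2. Both deviated towards the other treatment of their own genotype. Without these 2 libraries 585 genes were again called for the difference, of which 367 were among the 585 called with all libraries.

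IMA1 (AT1G47400) followed the labels. It had 411, 471 and 444 CPM in IMA1ox with flg22 and 314, 309 and 306 CPM in IMA1ox without flg22, against 9.83, 5.44 and 7.94 CPM in WT with flg22 and 18.7, 13.4 and 9.26 CPM in WT without flg22. Every IMA1ox library lay above every WT library, within IMA1ox the libraries with flg22 lay above those without, and the WT groups overlapped. The flg22 effect was 0.51 ± 0.16 (adjusted p = 0.0105) in IMA1ox and -0.84 ± 0.2 (adjusted p = 0.00184) in WT, and the difference was 1.35 ± 0.25 (adjusted p = 0.00255), a call lost in the fit of the 12 libraries alone. Reads of the transgene and of the endogenous gene cannot be told apart here, and IMA1 and IMA2 are similar enough in sequence that the split of their reads is uncertain. FLS2 (AT5G46330), the receptor, had 2.82, 6.18 and 5.97 CPM in IMA1ox with flg22, 1.28, 1.12 and 1.44 CPM in IMA1ox without flg22, 7.35, 5.16 and 5.55 CPM in WT with flg22 and 2.24, 2.39 and 2.24 CPM in WT without flg22. It was called higher with flg22 in both genotypes (1.95 in IMA1ox and 1.39 in WT), and the difference of 0.56 ± 0.37 (adjusted p = 0.524) did not pass the test.

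In Fe-deficient roots, 585 of 20354 genes responded differently to flg22 in IMA1ox than in WT, a share of 2.87%. The difference was higher for 422 genes (2.07%) and lower for 163 genes (0.801%), and it was at least 2-fold for 112 (0.55%) and 34 (0.167%) of them. With libraries scaled by their totals alone the split was 315 higher and 201 lower. The flg22 effect itself was called for 9262 genes (45.5%) in IMA1ox, 4890 higher (24%) and 4372 lower (21.5%), and for 7118 genes (35%) in WT, 3707 higher (18.2%) and 3411 lower (16.8%). Scaling by totals alone gave 3984 higher and 5545 lower in IMA1ox. A fit of the 12 libraries alone, which estimates the spread from fewer groups, called 199 genes for the difference, leaving out WT flg22 2 left 310 and leaving out IMA1ox untreated 3 left 365.

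**Figure D1:**
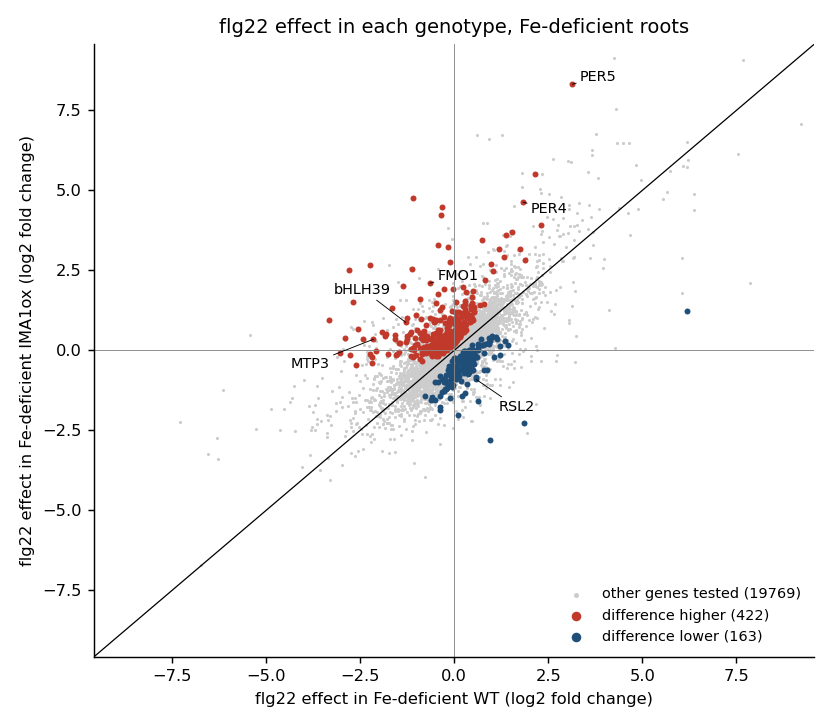
Each point is a gene, with the log2 flg22 effect in Fe-deficient IMA1ox on the y axis and in Fe-deficient WT on the x axis; the line marks equal effects. The 422 genes with a higher difference (red) lie above the line, mostly at or left of 0 on the WT axis, and the 163 with a lower difference (blue) lie below it.

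The difference is made of both flg22 effects, and their values for the called genes are given as a description. Among the 422 genes, 192 (45.5%) were called higher with flg22 in IMA1ox and not called in WT, 106 (25.1%) were called lower in WT and not called in IMA1ox, and 72 (17.1%) were higher in IMA1ox and lower in WT. Over all genes these patterns held 9.9%, 4.82% and 0.354%, in the same order. 49 (11.6%) were higher in both and 3 (0.711%) were lower in both, beside 13.8% and 11.6% of all genes. The median flg22 effect of the 422 was 0.40 in IMA1ox and -0.16 in WT. Among the 163 genes, 77 (47.2%) were called lower in IMA1ox and not in WT, 43 (26.4%) were higher in WT and not called in IMA1ox, and 22 (13.5%) were lower in IMA1ox and higher in WT. Over all genes these patterns held 9.79%, 4.34% and 0.108%, in the same order. The median flg22 effect of the 163 was -0.42 in IMA1ox and 0.27 in WT.

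The same 4 groups can be read across genotypes, and the libraries are shared with the difference, so these counts too are a description. Of the 422 genes, 176 were called higher and 5 lower in IMA1ox than in WT with flg22, and 2 were called higher and 280 lower in IMA1ox than in WT without flg22. Most of them thus stood lower in untreated IMA1ox roots, and the flg22-treated roots of the 2 genotypes were closer or in the other order. Of the 163 genes, 1 was higher and 120 were lower in IMA1ox than in WT with flg22, and 42 were higher and 10 lower without flg22. Over all genes, 903 (4.44%) were called higher and 1196 (5.88%) lower in IMA1ox with flg22, and 844 (4.15%) higher and 1579 (7.76%) lower without flg22. Under scaling by totals alone these counts were 1375 higher and 981 lower with flg22, and 2296 higher and 1007 lower without flg22.

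Genes that control the Fe deficiency response fell with flg22 in WT, and most did not in IMA1ox. Of 17 regulators and their close targets, 11 had a higher difference and 0 a lower one, with a median of 1.54, beside 2.07% higher, 0.801% lower and a median of 2e-04 over all genes. flg22 was called lower for 16 of the 17 in WT (median -1.14), and in IMA1ox 7 were called higher and 1 lower (median 0.32). Over all genes 16.8% were called lower in WT, and 24% higher and 21.5% lower in IMA1ox. Without flg22 12 of the 17 stood lower in IMA1ox than in WT and 1 higher, and with flg22 3 stood lower and 7 higher. The shares over all genes were 7.76% lower and 4.15% higher without flg22, and 5.88% lower and 4.44% higher with it. These counts and medians include IMA1, which carries the transgene, and IMA3, which had few counts in IMA1ox. IMA1 is among the 11 with a higher difference and among the 7 called higher with flg22 in IMA1ox. Its IMA1ox libraries all lay above those of WT. Among the bHLH Ib genes, bHLH39 (AT3G56980) had 89.1, 124 and 102 CPM in IMA1ox with flg22, 63.8, 55.7 and 51.7 CPM in IMA1ox without flg22, 49.1, 28.03 and 54.2 CPM in WT with flg22 and 134, 95.6 and 91.1 CPM in WT without flg22. In IMA1ox the flg22 libraries lay above the untreated ones, and in WT they lay below them, with no overlap on either side. The difference was 2.17 ± 0.38 (adjusted p = 0.00146). bHLH101 (AT5G04150) had 10.2, 15.9 and 13.6 CPM in IMA1ox with flg22, 10.4, 8.902 and 9.03 CPM in IMA1ox without flg22, 5.52, 4.07 and 6.84 CPM in WT with flg22 and 19.2, 12.4 and 17.4 CPM in WT without flg22. Its WT groups did not overlap and its IMA1ox groups did, and the difference was 2.06 ± 0.3 (adjusted p = 0.000178). bHLH38 (AT3G56970) showed the same order of groups as bHLH39, with a difference of 2.29 ± 0.61 (adjusted p = 0.0371). The fourth member, bHLH100 (AT2G41240), had 102, 122 and 101 CPM in IMA1ox with flg22, 81.8, 77.2 and 68.3 CPM in IMA1ox without flg22, 50.9, 7.24 and 46.02 CPM in WT with flg22 and 199, 117 and 129 CPM in WT without flg22. Its groups were ordered like those of bHLH39, but WT flg22 2 lay far below the other WT libraries with flg22, and the difference of 2.61 ± 0.8 (adjusted p = 0.0795) did not pass the test. In the fit of the 12 libraries alone 9 of the 17 had a higher difference, and bHLH38 lost the call. The call of bHLH38 was lost without any 1 of IMA1ox flg22 2, IMA1ox untreated 1, IMA1ox untreated 2, IMA1ox untreated 3, WT flg22 2 and WT untreated 1 (adjusted p up to 0.129).

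The negative regulators differed in the same direction. BTS (AT3G18290), the ubiquitin ligase that removes upstream bHLH factors, had 91.1, 111 and 103 CPM in IMA1ox with flg22, 82.6, 83.2 and 78 CPM in IMA1ox without flg22, 107, 82.8 and 97.8 CPM in WT with flg22 and 193, 150.1 and 139 CPM in WT without flg22. The untreated WT libraries were the highest of the 12, and the flg22 libraries of the 2 genotypes overlapped. Its difference was 1.07 ± 0.13 (adjusted p = 2.01e-05). The BTS-like ligase genes BTSL1 (AT1G74770) and BTSL2 (AT1G18910), which act on FIT, had differences of 1.19 and 0.67, and the bHLH repressor PYE (AT3G47640) had 0.85 ± 0.12 (adjusted p = 8.56e-05). ZIF1 (AT5G13740), a vacuolar transporter that loads the metal chelator nicotianamine, had 63.4, 75.7 and 61.3 CPM in IMA1ox with flg22, 35.7, 32.5 and 33.8 CPM in IMA1ox without flg22, 62.9, 42.8 and 57.4 CPM in WT with flg22 and 86.5, 73.7 and 80.4 CPM in WT without flg22. flg22 raised it in IMA1ox, to the range of WT with flg22 or above, and lowered it in WT. The difference was 1.54 ± 0.14 (adjusted p = 3.14e-07). OPT3 (AT4G16370), a phloem metal transporter, and FRO3 (AT1G23020), a mitochondrial ferric reductase, had differences of 1.62 ± 0.3 (adjusted p = 0.00268) and 1.56 ± 0.25 (adjusted p = 0.000544).

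Not every member of the list differed. The peptide gene IMA2 (AT1G47395) had 2.68, 0.887 and 3.24 CPM in IMA1ox with flg22, 3.402, 4.64 and 5.104 CPM in IMA1ox without flg22, 16.99, 11.2 and 16.8 CPM in WT with flg22 and 42.5, 31.2 and 25.4 CPM in WT without flg22, lower with flg22 in both genotypes, with a difference of 0.19 ± 0.39 (adjusted p = 0.88). IMA3 (AT2G30766), another peptide gene, stood at 3.88, 3.201 and 4.14 CPM in WT with flg22 and 16.98, 12.7 and 9.26 CPM in WT without flg22. In IMA1ox it held 5 counts in all with flg22 and 3 without, and no fold is given for it. The nicotianamine synthase gene NAS4 (AT1G56430) had 1.38, 0.637 and 3.01 CPM in IMA1ox with flg22, 3.25, 3.62 and 3.901 CPM in IMA1ox without flg22, 30.1, 14.02 and 19.9 CPM in WT with flg22 and 83.4, 48.3 and 36.4 CPM in WT without flg22. IMA1ox lay far below WT in both treatments, flg22 lowered it in WT, and the difference of 0.3 ± 0.58 (adjusted p = 0.873) did not pass.

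**Figure D2:**
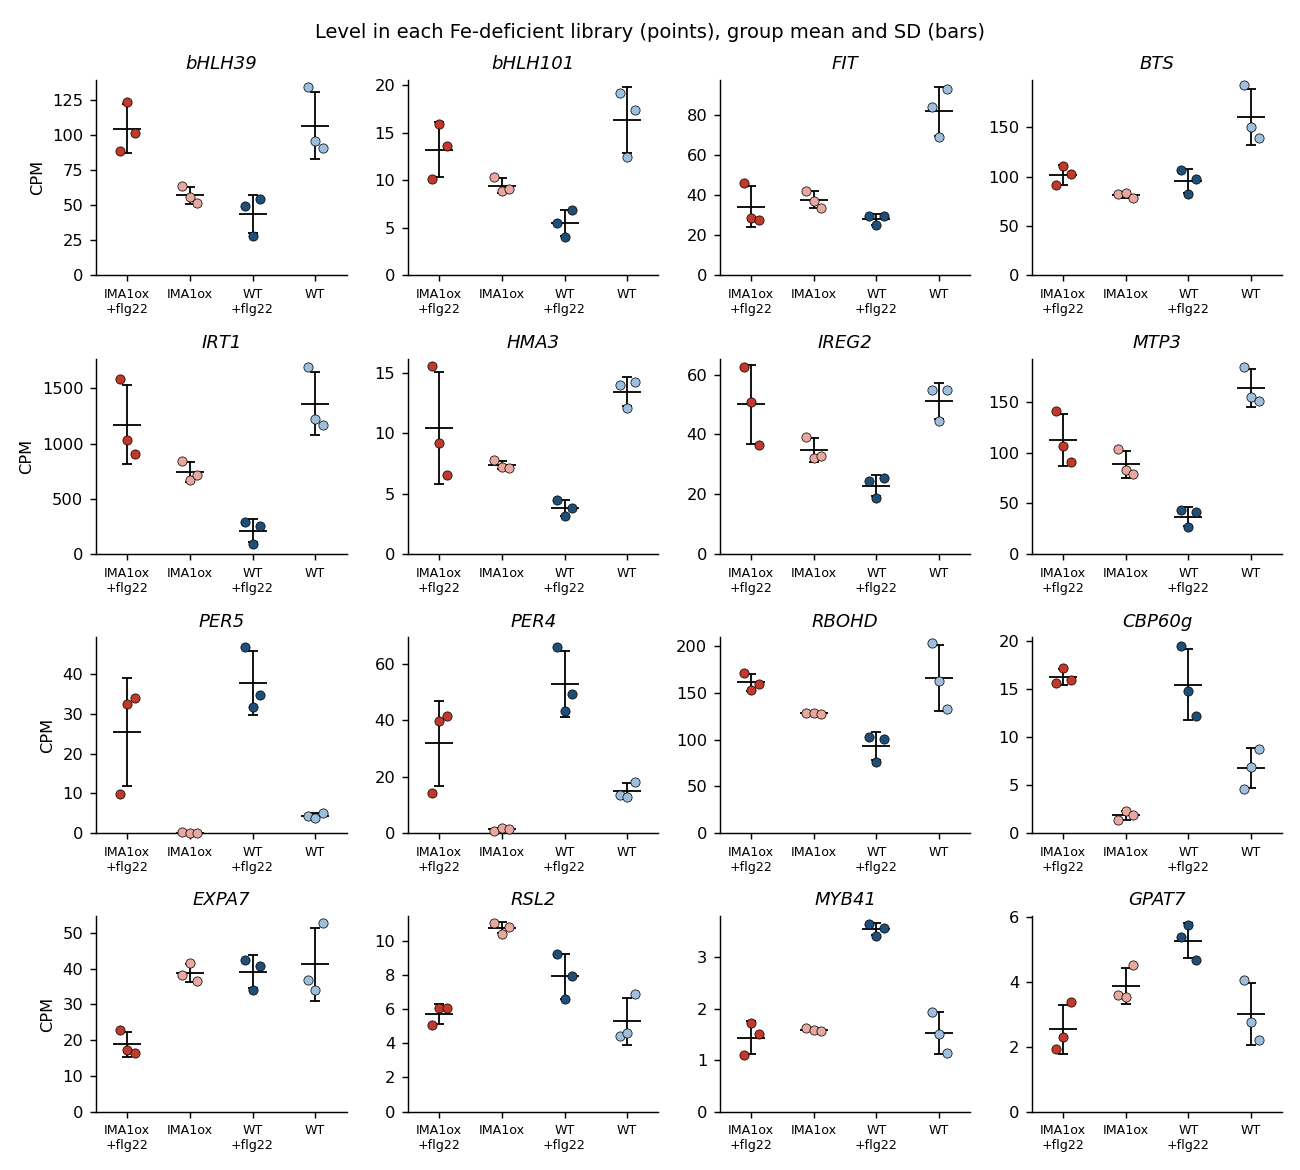
CPM of 16 genes in the 12 Fe-deficient libraries; points are libraries and bars are the group mean and SD (n = 3), with IMA1ox on the left and WT on the right, each with flg22 first. For bHLH39 and MTP3 WT with flg22 is the lowest group, for PER5 and PER4 untreated IMA1ox is, and for EXPA7 and RSL2 flg22 separates the IMA1ox groups and not the WT groups.

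Uptake and coumarin genes downstream of FIT differed in the same direction. Of 18 tested, 10 had a higher difference and 0 a lower one, beside 2.07% and 0.801% of all genes, with a median of 1.92. flg22 was called lower for 15 of 18 in WT (median -1.79) and higher for 1, and in IMA1ox 5 were called higher and 0 lower (median 0.34). Over all genes 16.8% were called lower and 18.2% higher in WT, and 24% higher and 21.5% lower in IMA1ox. FIT (AT2G28160) itself had 46.1, 28.7 and 27.7 CPM in IMA1ox with flg22, 42.03, 37.03 and 33.6 CPM in IMA1ox without flg22, 29.3, 24.8 and 29.7 CPM in WT with flg22 and 83.7, 68.8 and 93.04 CPM in WT without flg22. Untreated WT stood above all other libraries, flg22 was called lower in WT and not in IMA1ox, and the difference was 1.41 ± 0.24 (adjusted p = 0.00111). IRT2 (AT4G19680), an intracellular Fe transporter, had a difference of 2.15 ± 0.38 (adjusted p = 0.00142). Vacuolar metal transporters were among those called. MTP3 (AT3G58810), which stores Zn, had 141, 107 and 90.7 CPM in IMA1ox with flg22, 104, 83.2 and 78.5 CPM in IMA1ox without flg22, 43.6, 26.1 and 41.1 CPM in WT with flg22 and 185, 155 and 151 CPM in WT without flg22. All WT libraries with flg22 lay below every other library, and the difference was 2.5 ± 0.37 (adjusted p = 0.000274). HMA3 (AT4G30120), a Zn and Cd pump, had 15.6, 9.17 and 6.53 CPM in IMA1ox with flg22, 7.77, 7.21 and 7.16 CPM in IMA1ox without flg22, 4.46, 3.14 and 3.83 CPM in WT with flg22 and 14.1, 12.1 and 14.3 CPM in WT without flg22, with a difference of 2.32 ± 0.32 (adjusted p = 0.000105). IREG2 (AT5G03570), which loads Ni and Co, had a difference of 1.69 ± 0.19 (adjusted p = 1.02e-05), and NRAMP1 (AT1G80830), a Mn and Fe transporter, 0.68 ± 0.11 (adjusted p = 0.000306). Of the list, NRAMP1 alone was called higher with flg22 in both genotypes (1.05 in IMA1ox and 0.37 in WT).

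The ferrous Fe importer and the reductase had the 2 largest differences of the list, with a wide spread. IRT1 (AT4G19690), the Fe2+ importer, had 1580.0, 1030.0 and 906 CPM in IMA1ox with flg22, 841, 668 and 716 CPM in IMA1ox without flg22, 285, 90.3 and 258 CPM in WT with flg22 and 1689, 1225 and 1166 CPM in WT without flg22. WT with flg22 lay below every other library, and the difference was 3.35 ± 0.96 (adjusted p = 0.0576). FRO2 (AT1G01580), the ferric chelate reductase, had 674, 300.5 and 288 CPM in IMA1ox with flg22, 413, 289.5 and 296 CPM in IMA1ox without flg22, 185, 39.5 and 149.5 CPM in WT with flg22 and 1151, 848 and 824 CPM in WT without flg22. Again WT with flg22 held the 3 lowest libraries, and the difference was 3.25 ± 1.02 (adjusted p = 0.0905). In both genes WT flg22 2 was the lowest of all, at 90.3 CPM for IRT1 and 39.5 CPM for FRO2, and neither difference passed the test in the main fit. That of IRT1 passed with DESeq2 in place of edgeR and in the fit of the 12 libraries alone. Among coumarin genes, the regulator MYB10 (AT3G12820) had 30.9, 22.3 and 19.4 CPM in IMA1ox with flg22, 22.1, 19.2 and 15.9 CPM in IMA1ox without flg22, 10.5, 3.42 and 11.1 CPM in WT with flg22 and 55.1, 37.6 and 40.2 CPM in WT without flg22 and a difference of 2.76 ± 0.53 (adjusted p = 0.0035). F6'H1 (AT3G13610), which makes scopoletin, had 1.19 ± 0.26 (adjusted p = 0.00938), and the exporter gene PDR9 (AT3G53480) 0.73 ± 0.14 (adjusted p = 0.00279). The regulator MYB72 (AT1G56160) had 2.56 ± 0.84 (adjusted p = 0.106), the fraxetin enzyme gene S8H (AT3G12900) 3.05 ± 1.7 (adjusted p = 0.424) and the sideretin enzyme gene CYP82C4 (AT4G31940) 2.53 ± 1.23 (adjusted p = 0.338), none of which passed in the main fit. MYB72 passed with limma-trend in place of edgeR.

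**Figure D3:**
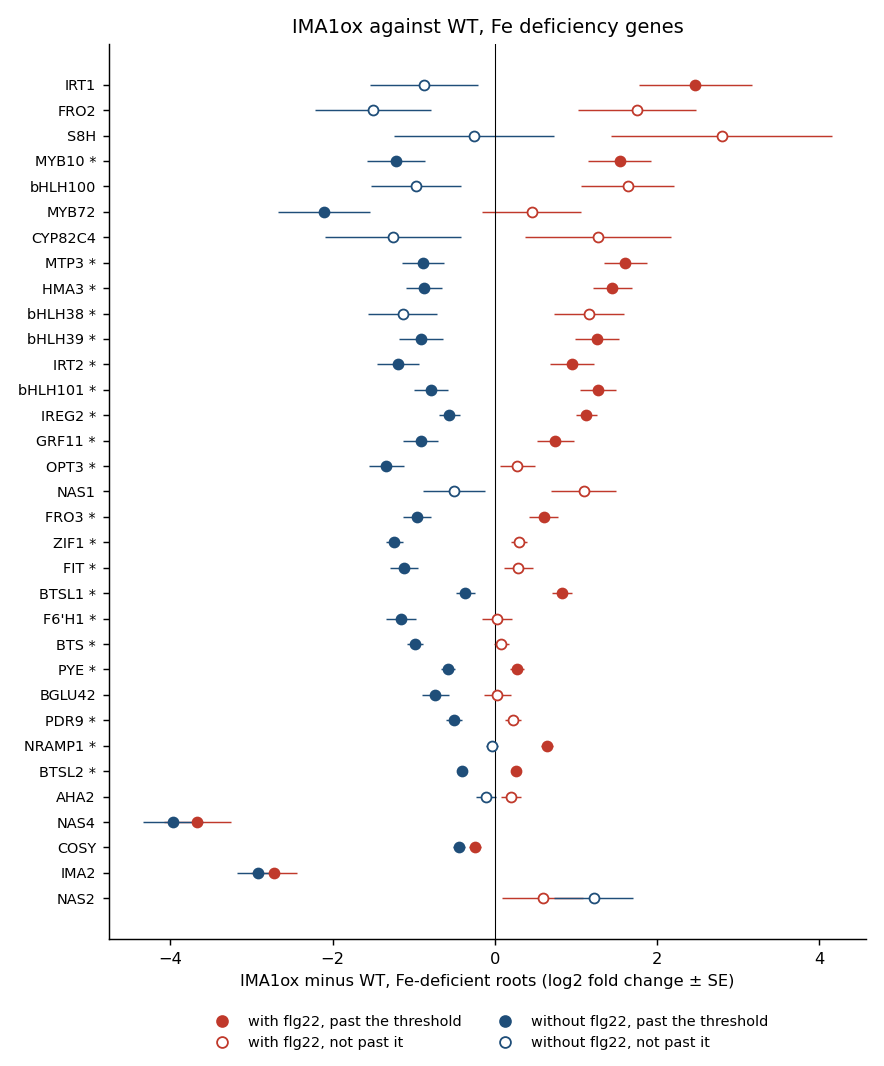
IMA1ox minus WT (log2, with SE) for 33 Fe deficiency genes, with flg22 (red) and without flg22 (blue), sorted by the difference of flg22 effects; filled points passed the test and an asterisk marks a called difference. Most blue points lie left of 0 and most red points at or right of 0. IMA1, which carries the transgene, and IMA3, with 3 counts in untreated IMA1ox, are not drawn.

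The Fe-deficiency genes can also be chosen from libraries outside these 12. Fe deficiency in fls2, which lacks the flg22 receptor, raised 62 of 20354 genes (0.305%) at least 2-fold. Of these, 36 (58.1%) had a higher difference and 0 a lower one, against 2.07% and 0.801% of all genes. Their median difference was 1.67. In Fe-deficient fls2 itself the edgeR test called 0 genes (0%) for flg22, with 807 at an unadjusted p under 0.05. flg22 was called higher for 20 and lower for 4 of the 62 in IMA1ox (median 0.34), and higher for 3 and lower for 54 in WT (median -1.37). Over all genes 24% were called higher and 21.5% lower in IMA1ox, and 18.2% higher and 16.8% lower in WT. IMA1ox lay at a median of 0.62 relative to WT with flg22 and of -1.10 without flg22. Taken from the other side, Fe deficiency in fls2 was called to raise 106 of the 422 genes (25.1%, background 1.15%) and to lower 33 of the 163 (20.2%, background 0.968%). Without the 2 libraries that stood apart 35 of the 62 had a higher difference, and in the fit of the 12 libraries alone 26 did. The mean log2 level of the 62 was 2.31 in WT flg22 2, against 3.25 and 3.09 in WT flg22 1 and 3. WT flg22 2 was kept in the fit without the 2 libraries that stood apart.

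Fewer genes were called in other parts of Fe homeostasis, where the shares over all genes were 2.07% higher and 0.801% lower. Among 6 upstream bHLH factors, 1 had a higher difference, bHLH115 (AT1G51070) with 0.36 ± 0.09 (adjusted p = 0.0264), and their median was 0.09. Of 8 Fe storage genes, 0 had a higher and 1 a lower difference, with a median of -0.42. The 1 was VTL2 (AT1G76800), a vacuolar Fe transporter-like gene, with -1.0 ± 0.27 (adjusted p = 0.0363). 7 of the 8 were called higher in IMA1ox than in WT with flg22, and 7 of the 8 without flg22, beside 4.44% and 4.15% of all genes. FER1 (AT5G01600), a ferritin that stores Fe in plastids, had 156, 198 and 147 CPM in IMA1ox with flg22, 190.3, 179.9 and 198 CPM in IMA1ox without flg22, 80.6, 64.1 and 75.98 CPM in WT with flg22 and 26.2, 37.2 and 82.2 CPM in WT without flg22. All IMA1ox libraries lay above all WT libraries, and WT untreated 3 stood above the other untreated WT libraries. The difference was -0.79 ± 0.33 (adjusted p = 0.238), -1.35 (adjusted p = 0.00102) without the 2 libraries that stood apart and -1.41 without WT untreated 3 alone. The calls were lost for bHLH115 without any 1 of IMA1ox flg22 2, IMA1ox untreated 1, IMA1ox untreated 3, WT flg22 1, WT flg22 2 and WT untreated 1 (adjusted p up to 0.0898) and for VTL2 without 1 library in 7 of 12 cases, all but IMA1ox flg22 2, IMA1ox flg22 3, IMA1ox untreated 1, WT flg22 3 and WT untreated 3 (adjusted p up to 0.122), and both lost it in the fit of the 12 libraries alone.

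Most immunity markers rose with flg22 in both genotypes, and 3 responded differently between them. Of 18 immunity markers tested, 15 were called higher and 0 lower with flg22 in IMA1ox (median 0.96), and 13 higher and 1 lower in WT (median 0.85), beside 24% and 18.2% of all genes higher in IMA1ox and in WT. The difference was higher for 3 and lower for 0, with a median of 0.22, beside 2.07% higher and 0.801% lower over all genes. PER5 (AT1G14550), a peroxidase often used as a marker of flg22 perception, had 9.84, 32.6 and 34.05 CPM in IMA1ox with flg22, 0.131, 0 and 0.0802 CPM in IMA1ox without flg22, 46.96, 31.8 and 34.7 CPM in WT with flg22 and 4.13, 3.66 and 5.08 CPM in WT without flg22. Its flg22 libraries overlapped between the genotypes, and without flg22 IMA1ox lay far below WT, with 8 counts in its 3 libraries. The difference was 5.18 ± 0.85 (adjusted p = 0.000776). PER4 (AT1G14540), the neighbouring peroxidase gene of the same use, had 14.3, 39.8 and 41.5 CPM in IMA1ox with flg22, 0.837, 1.66 and 1.42 CPM in IMA1ox without flg22, 66.3, 43.3 and 49.4 CPM in WT with flg22 and 13.5, 12.9 and 18.2 CPM in WT without flg22. It too was low in untreated IMA1ox, and the difference was 2.8 ± 0.48 (adjusted p = 0.00103). PER4 and PER5 are close relatives, and reads they share could move between them. RBOHD (AT5G47910), the oxidase of the oxidative burst, had 171, 154 and 159.6 CPM in IMA1ox with flg22, 128, 129 and 128 CPM in IMA1ox without flg22, 103, 75.7 and 101 CPM in WT with flg22 and 203, 162 and 133 CPM in WT without flg22. It was called lower with flg22 in WT, and its higher level with flg22 in IMA1ox passed at an adjusted p of 0.0405, or 0.0511 with a replicate block within Fe-deficient IMA1ox. The difference was 1.17 ± 0.19 (adjusted p = 0.000512). In the fit of the 12 libraries alone 1 of the 18 had a higher difference, and PER5 and PER4 lost the call. Without IMA1ox untreated 1 the difference of PER5 was 5.9.

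FRK1 and WRKY33 rose with flg22 in both genotypes, and their difference did not pass the test. FRK1 (AT2G19190), a receptor-like kinase gene, had 2.14, 27.9 and 24.3 CPM in IMA1ox with flg22, 0.366, 0.609 and 0.0534 CPM in IMA1ox without flg22, 27.96, 23.6 and 20.6 CPM in WT with flg22 and 0.532, 0.294 and 0.201 CPM in WT without flg22. IMA1ox flg22 1 lay far below the other libraries with flg22, and the difference was -0.31 ± 1.21 (adjusted p = 0.946), or 0.47 (adjusted p = 0.785) without the 2 libraries that stood apart. WRKY33 (AT2G38470), a transcription factor of camalexin synthesis, had flg22 effects of 0.83 in IMA1ox and 0.91 in WT and a difference of -0.08 ± 0.21 (adjusted p = 0.913). Among receptors and their partners 2 of 15 had a higher difference and 0 a lower one: the Pep peptide receptor gene PEPR1 (AT1G73080) with 0.37 ± 0.08 (adjusted p = 0.00666), and the G protein gene XLG2 (AT4G34390) with 0.39 ± 0.08 (adjusted p = 0.00694). BAK1 (AT4G33430) and the kinase gene BIK1 (AT2G39660), both at the FLS2 complex, had 0.04 ± 0.06 (adjusted p = 0.79) and 0.03 ± 0.1 (adjusted p = 0.938). Of 12 genes of the MAP kinase cascade, MPK3 (AT3G45640) was called, with 0.47 ± 0.1 (adjusted p = 0.00573). Over all genes 2.07% had a higher and 0.801% a lower difference. Without the 2 libraries that stood apart PEPR1 had 0.27 (adjusted p = 0.0634), XLG2 0.32 (adjusted p = 0.0512) and MPK3 0.34 (adjusted p = 0.058), and none of the 3 was called in the fit of the 12 libraries alone.

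Salicylic acid and pipecolate genes had a median difference of 0.71, with 4 of 12 called higher and 0 lower, beside 2.07% and 0.801% of all genes. CBP60g (AT5G26920), a transcription factor that activates salicylic acid synthesis, had 15.6, 17.2 and 15.9 CPM in IMA1ox with flg22, 1.33, 2.23 and 1.897 CPM in IMA1ox without flg22, 19.4, 14.7 and 12.1 CPM in WT with flg22 and 4.55, 6.89 and 8.72 CPM in WT without flg22. Its flg22 libraries overlapped between genotypes, and untreated IMA1ox lay below all other groups. The difference was 1.97 ± 0.46 (adjusted p = 0.0153). FMO1 (AT1G19250), which makes N-hydroxypipecolate, had 3.07, 5.85 and 4.07 CPM in IMA1ox with flg22, 0.864, 0.948 and 1.202 CPM in IMA1ox without flg22, 4.53, 4.38 and 3.796 CPM in WT with flg22 and 3.63, 12.4 and 3.85 CPM in WT without flg22. Among WT libraries without flg22, WT untreated 2 stood at 12.4 CPM and the others at 3.63 and 3.85 CPM. The difference was 2.75 ± 0.73 (adjusted p = 0.0367), and 1.93 without WT untreated 2. SARD4 (AT5G52810), a step of pipecolate synthesis, and PAD4 (AT3G52430), a lipase-like regulator, had 0.78 ± 0.19 (adjusted p = 0.0197) and 0.53 ± 0.09 (adjusted p = 0.00109). ICS1 (AT1G74710), the main enzyme of salicylic acid synthesis, had 0.09 ± 0.17 (adjusted p = 0.87), and PR1 was below the count filter and not tested. Calls were lost for CBP60g without any 1 of IMA1ox untreated 1 and WT untreated 3 (adjusted p up to 0.0547), SARD4 without any 1 of IMA1ox untreated 1, WT flg22 2 and WT untreated 2 (adjusted p up to 0.0644) and FMO1 without 1 library in 8 of 12 cases, all but IMA1ox flg22 1, IMA1ox flg22 3, WT untreated 1 and WT untreated 3 (adjusted p up to 0.131). CBP60g had 1.76 (adjusted p = 0.0581) without the 2 libraries that stood apart. Of the list 2 were called in the fit of the 12 libraries alone, where FMO1 and SARD4 lost the call, and 1 without IMA1ox untreated 1.

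**Figure D4:**
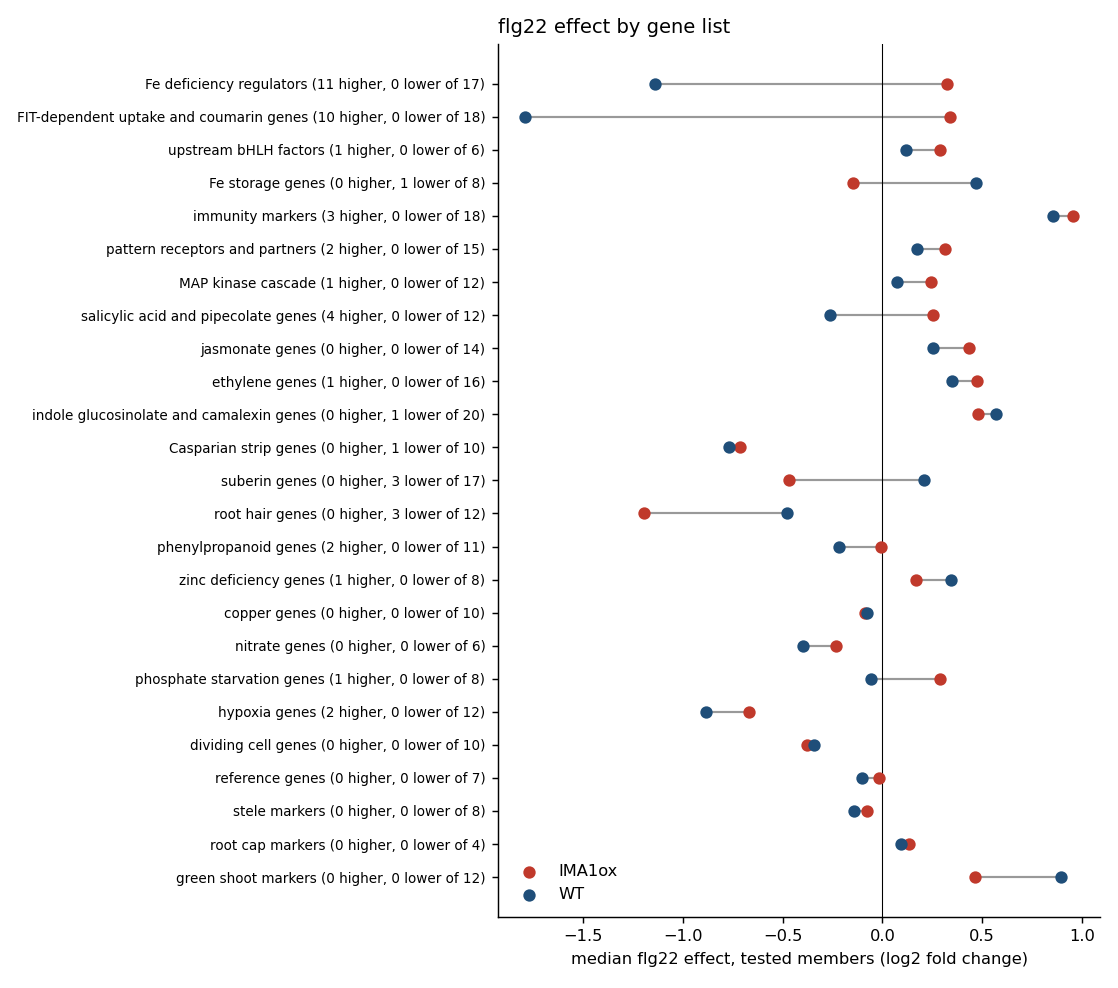
Median flg22 effect over the tested members of each gene list, in Fe-deficient IMA1ox (red) and Fe-deficient WT (blue); labels give how many members had a higher or lower difference. The Fe deficiency regulators and the FIT-dependent genes lie right of 0 in IMA1ox and left of 0 in WT. So do the salicylic acid and pipecolate genes and the phosphate starvation genes, and Fe storage genes lie the other way. Root hair and suberin genes lie further left in IMA1ox than in WT, where suberin genes lie right of 0.

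Of the jasmonate, ethylene, glucosinolate, phenylpropanoid, hypoxia and nutrient lists at most 2 genes each were called, beside 2.07% higher and 0.801% lower over all genes. 0 of 14 jasmonate genes were called, with a median of 0.20. 1 of 16 ethylene genes was higher, ORA59 (AT1G06160), a factor that joins ethylene and jasmonate signals, with 1.11 ± 0.27 (adjusted p = 0.0183). 1 of 20 indole glucosinolate and camalexin genes was lower, CYP79B3 (AT2G22330), which makes indole-3-acetaldoxime, with -0.52 ± 0.15 (adjusted p = 0.0474). In that list CYP81F2 (AT5G57220), a modifier of indole glucosinolates, had 0.43 (adjusted p = 0.794) and the regulator MYB51 (AT1G18570) 0.05 (adjusted p = 0.973). 2 of 11 phenylpropanoid genes were higher, 4CL2 (AT3G21240) with 0.68 (adjusted p = 0.0147) and PAL2 (AT3G53260) with 0.65 (adjusted p = 0.0267), as were 2 of 12 hypoxia genes, the pyruvate decarboxylase gene PDC2 (AT5G54960) with 0.53 (adjusted p = 0.000675) and the transcription factor gene HRE1 (AT1G72360) with 0.88 (adjusted p = 0.0119). 1 of 8 zinc deficiency genes, the sensor bZIP19 (AT4G35040), and 1 of 8 phosphate starvation genes, the exporter PHO1 (AT3G23430), were higher by 0.29 (adjusted p = 0.0137) and 0.46 (adjusted p = 0.0381). None of 10 copper genes, 6 nitrate genes or 7 reference genes was called. Calls were lost for ORA59 without any 1 of IMA1ox flg22 2, IMA1ox untreated 3 and WT flg22 2 (adjusted p up to 0.0682), PAL2 without any 1 of IMA1ox flg22 2, IMA1ox untreated 2, IMA1ox untreated 3, WT flg22 2 and WT untreated 1 (adjusted p up to 0.0876), 4CL2 without WT flg22 2 (adjusted p up to 0.0564) and bZIP19 without WT flg22 2 (adjusted p up to 0.0636). They were also lost for CYP79B3 without 1 library in 9 of 12 cases, all but IMA1ox flg22 1, IMA1ox untreated 1 and WT untreated 1 (adjusted p up to 0.154) and PHO1 without 1 library in 10 of 12 cases, all but IMA1ox flg22 3 and IMA1ox untreated 1 (adjusted p up to 0.137). Without the 2 libraries that stood apart ORA59 had 1.0 (adjusted p = 0.0686), CYP79B3 -0.53 (adjusted p = 0.0982), HRE1 0.79 (adjusted p = 0.0576), bZIP19 0.25 (adjusted p = 0.0631) and PHO1 0.46 (adjusted p = 0.0763). With the replicate block within Fe-deficient IMA1ox the call of CYP79B3 was lost (adjusted p = 0.0618). In the fit of the 12 libraries alone CYP79B3, 4CL2, PAL2, bZIP19 and PHO1 lost the call.

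Among the 12 largest higher differences of called genes with at least 5 CPM in 1 of the 4 groups, PER5, PER4, MYB10, FMO1 and MTP3 were on a list. DIN11 (AT3G49620), a gene of a 2-oxoglutarate and Fe(II)-dependent oxygenase, had 34.3, 16.3 and 4.38 CPM in IMA1ox with flg22, 1.204, 1.01 and 0.722 CPM in IMA1ox without flg22, 3.69, 4.66 and 4.08 CPM in WT with flg22 and 3.37, 5.39 and 7.05 CPM in WT without flg22. IMA1ox with flg22 was raised and widely spread, and the difference was 4.56 ± 0.78 (adjusted p = 0.00111). The lambda glutathione transferase gene GSTL1 (AT5G02780) had 62.4, 52.5 and 47.9 CPM in IMA1ox with flg22, 74.1, 53.04 and 52.2 CPM in IMA1ox without flg22, 24.8, 14.3 and 21.6 CPM in WT with flg22 and 170.2, 118 and 126 CPM in WT without flg22. It was low in WT with flg22 and its IMA1ox groups overlapped, with a difference of 2.63 ± 0.64 (adjusted p = 0.023). A germin-like cupin gene, AT3G05950, had 2.52 ± 0.56 (adjusted p = 0.0119), and the peroxidase family gene AT3G03670, with 24 counts in all in untreated IMA1ox, 3.38 ± 0.84 (adjusted p = 0.0245). DIR5 (AT1G64160), of the dirigent-like family, had 3.41 ± 0.94 (adjusted p = 0.0474) and the glycine-rich protein gene AT4G27850 2.97 ± 0.7 (adjusted p = 0.0164). ARD3 (AT2G26400), an acireductone dioxygenase gene of the methionine salvage cycle, had the largest value of these, 5.29 ± 1.42 (adjusted p = 0.0402). That value rested on WT untreated 2, with 28.8 CPM against 1.56 and 1.91 CPM in the other untreated WT libraries, and was 2.67 without it. With the replicate block over all libraries ARD3 had 5.27 (adjusted p = 0.061), and with the block within Fe-deficient IMA1ox alone 5.08 (adjusted p = 0.0624), and the call was lost in both. Without the 1 library that moved them most, DIN11 had 3.73 and DIR5 2.60 (both without IMA1ox flg22 1), and AT4G27850 had 2.19 (without WT untreated 2).

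Among these genes calls were lost for ARD3 without 1 library in 9 of 12 cases, all but IMA1ox flg22 1, WT untreated 1 and WT untreated 3 (adjusted p up to 0.265) and for DIR5 without 1 library in 9 of 12 cases, all but IMA1ox flg22 2, IMA1ox flg22 3 and WT untreated 1 (adjusted p up to 0.135). They were also lost for AT3G03670 without any 1 of IMA1ox untreated 1, IMA1ox untreated 2, IMA1ox untreated 3, WT untreated 2 and WT untreated 3 (adjusted p up to 0.0817), AT4G27850 without any 1 of IMA1ox flg22 1, IMA1ox untreated 3 and WT untreated 2 (adjusted p up to 0.0514) and GSTL1 without any 1 of IMA1ox untreated 2, IMA1ox untreated 3 and WT flg22 2 (adjusted p up to 0.0822). Without the 2 libraries that stood apart, DIR5 had 2.7 (adjusted p = 0.159), AT3G03670 2.79 (adjusted p = 0.119), AT4G27850 2.83 (adjusted p = 0.0522) and GSTL1 2.58 (adjusted p = 0.0505). The calls of PER5, PER4, DIN11, MYB10, AT3G05950 and MTP3 held with each of the 12 libraries left out in turn. In the fit of the 12 libraries alone ARD3, PER5, DIN11, DIR5, AT4G27850, PER4 and FMO1 lost the call.

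Genes of root hairs fell with flg22 in IMA1ox, and 3 of 12 fell further there than in WT. All 12 on the list were called lower with flg22 in IMA1ox (median -1.2) and 6 of 12 in WT (median -0.48), beside 21.5% and 16.8% of all genes lower in IMA1ox and in WT. The difference was lower for 3 and higher for 0, beside 0.801% and 2.07% of all genes, with a median of -0.66, and without the 2 libraries that stood apart it was lower for 10. In bulk roots, fewer root hair cells and less RNA per cell cannot be told apart. Their summed level ran from 365 to 675 CPM in IMA1ox with flg22, from 1106 to 1201 CPM in IMA1ox without flg22, from 642 to 774 CPM in WT with flg22 and from 1016 to 1131 CPM in WT without flg22. The highest sum of IMA1ox with flg22 came from IMA1ox flg22 1. EXPA7 (AT1G12560), an expansin of root hair walls, had 22.8, 17.2 and 16.5 CPM in IMA1ox with flg22, 38.3, 41.6 and 36.6 CPM in IMA1ox without flg22, 42.5, 33.9 and 40.9 CPM in WT with flg22 and 36.8, 33.9 and 52.8 CPM in WT without flg22. IMA1ox with flg22 lay below all other libraries, and the difference was -0.97 ± 0.18 (adjusted p = 0.00219). The related EXPA18 (AT1G62980) had -0.81 ± 0.18 (adjusted p = 0.0114) and the peroxidase gene PER7 (AT1G30870) -0.72 ± 0.19 (adjusted p = 0.0374), with the call lost for PER7 without 1 library in 9 of 12 cases, all but IMA1ox flg22 1, WT flg22 2 and WT untreated 3 (adjusted p up to 0.12). In the fit of the 12 libraries alone 0 of the 12 were called, and without IMA1ox flg22 1 there were 9.

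2 more root hair genes were among the 12 largest lower differences. RSL2 (AT4G33880), a bHLH factor of root hair growth, had 5.04, 6.07 and 6.06 CPM in IMA1ox with flg22, 11.02, 10.4 and 10.8 CPM in IMA1ox without flg22, 9.24, 6.56 and 7.91 CPM in WT with flg22 and 4.4, 4.58 and 6.85 CPM in WT without flg22. Untreated IMA1ox stood highest, and flg22 was called lower in IMA1ox and higher in WT, where the groups overlapped. The difference was -1.49 ± 0.28 (adjusted p = 0.00199). RHS14 (AT4G22080), a root hair specific gene, had -1.13 ± 0.22 (adjusted p = 0.00273). Summed dividing cell genes ran from 206 to 275 CPM in IMA1ox with flg22, from 312 to 333 CPM in IMA1ox without flg22, from 238 to 252 CPM in WT with flg22 and from 274 to 343 CPM in WT without flg22, and 0 of 10 were called for the difference. None of 8 stele markers, 4 root cap markers or 12 green shoot markers was called either. Green shoot sums ran from 218 to 300 CPM in IMA1ox with flg22, from 171 to 198 CPM in IMA1ox without flg22, from 358 to 643 CPM in WT with flg22 and from 211 to 344 CPM in WT without flg22. In all 6 marker lists no marker was at 0 in any of the 4 groups. Whether tissue makeup has a part in the differences was not tested.

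Among suberin genes 3 of 17 had a lower difference. flg22 was called lower for 11 of 17 and higher for 0 in IMA1ox (median -0.47, and 9 lower with a replicate block within Fe-deficient IMA1ox), and lower for 0 and higher for 4 in WT (median 0.21). Over all genes 21.5% were called lower and 24% higher in IMA1ox, and 16.8% lower and 18.2% higher in WT. The difference was lower for 3 and higher for 0, beside 0.801% and 2.07% of all genes, with a median of -0.73. MYB41 (AT4G28110), a transcription factor that turns on suberin synthesis, had 1.099, 1.72 and 1.51 CPM in IMA1ox with flg22, 1.62, 1.59 and 1.58 CPM in IMA1ox without flg22, 3.66, 3.42 and 3.58 CPM in WT with flg22 and 1.95, 1.503 and 1.14 CPM in WT without flg22. WT with flg22 stood above the other 3 groups, and the difference was -1.35 ± 0.29 (adjusted p = 0.00576). GPAT5 (AT3G11430), a suberin acyltransferase, had 7.53, 8.48 and 7.62 CPM in IMA1ox with flg22, 9.94, 9.003 and 12.2 CPM in IMA1ox without flg22, 15.2, 16.8 and 19.2 CPM in WT with flg22 and 14.8, 13.7 and 9.93 CPM in WT without flg22. flg22 was called lower in IMA1ox, with an adjusted p of 0.0441, and higher in WT. The difference was -0.81 ± 0.23 (adjusted p = 0.0428). With the replicate block over all libraries it had -0.82 (adjusted p = 0.0507). With the block within Fe-deficient IMA1ox alone it had -0.81 (adjusted p = 0.0533), and the call of its flg22 effect in IMA1ox was lost too (adjusted p = 0.0554). The factor MYB93 (AT1G34670) had -0.75 ± 0.19 (adjusted p = 0.0266), and GPAT7 (AT5G06090), a relative of GPAT5, -1.42 ± 0.28 (adjusted p = 0.00255). Of 10 Casparian strip genes 1 was lower, the receptor gene SGN3 (AT4G20140) with -0.36 ± 0.09 (adjusted p = 0.0229). Calls were lost for GPAT5 without 1 library in 9 of 12 cases, all but IMA1ox untreated 2, WT flg22 1 and WT untreated 1 (adjusted p up to 0.138), for MYB93 without any 1 of IMA1ox flg22 2, IMA1ox untreated 2, WT flg22 2, WT flg22 3 and WT untreated 3 (adjusted p up to 0.0892) and for SGN3 without any 1 of IMA1ox flg22 2, IMA1ox untreated 1, IMA1ox untreated 3, WT flg22 3 and WT untreated 3 (adjusted p up to 0.0695). Without the 2 libraries that stood apart 1 of the 17 suberin genes was lower, MYB41 had -1.02 (adjusted p = 0.0538), GPAT5 -0.63 (adjusted p = 0.174) and SGN3 -0.35 (adjusted p = 0.0512). Single libraries left out gave 1 to 8 suberin calls, the most without WT untreated 1, scaling by totals alone gave 5 and the fit of the 12 libraries alone 0, where GPAT7 and SGN3 lost the call too.

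The largest lower difference among called genes with that level was that of AT2G41810, a gene of the DUF642 family. It had 0.113, 0.277 and 0.223 CPM in IMA1ox with flg22, 0.105, 0.0677 and 0.0802 CPM in IMA1ox without flg22, 11.1, 20.7 and 10.5 CPM in WT with flg22 and 0.207, 0.0654 and 0.301 CPM in WT without flg22. It was raised with flg22 in WT and stayed under 0.3 CPM in all IMA1ox libraries, with 22 counts in all with flg22 and 9 without, and the difference was -4.96 ± 1.26 (adjusted p = 0.0263). It was called lower with Fe too, at -7.22 ± 1.51 (adjusted p = 0.0182). The value under Fe deficiency minus that with Fe was 2.26 ± 1.65 (adjusted p = 0.706) and did not pass the test. UGT84A1 (AT4G15480), which glucosylates sinapate, had 19.7, 26.5 and 30.3 CPM in IMA1ox with flg22, 22.3, 22.1 and 25.8 CPM in IMA1ox without flg22, 62.4, 64.7 and 64 CPM in WT with flg22 and 30.4, 28.6 and 23.1 CPM in WT without flg22. flg22 was called higher in WT and not in IMA1ox, with a difference of -1.1 ± 0.2 (adjusted p = 0.00133). The peroxidase family gene AT3G49960 was high in untreated IMA1ox, with 57.9, 29.9 and 34.1 CPM in IMA1ox with flg22, 109.5, 129 and 105 CPM in IMA1ox without flg22, 37.01, 38.4 and 39.7 CPM in WT with flg22 and 43.4, 39.2 and 41.99 CPM in WT without flg22 and a difference of -1.38 ± 0.27 (adjusted p = 0.0041). The cytochrome P450 gene CYP78A8 (AT1G01190) had -1.26 (adjusted p = 0.00879), the stress gene KIN1 (AT5G15960) -1.63 (adjusted p = 0.0274), the acyltransferase family gene AT2G39980 -1.49 (adjusted p = 0.0255), the factor gene MYB50 (AT1G57560) -1.09 (adjusted p = 0.00325), and the serine carboxypeptidase genes scpl5 (AT1G73290) and AT5G22860 -1.1 (adjusted p = 0.00397) and -1.09 (adjusted p = 0.0367). Calls were lost for AT2G41810 without any 1 of IMA1ox untreated 1, IMA1ox untreated 2 and IMA1ox untreated 3 (adjusted p up to 0.138), AT2G39980 without any 1 of IMA1ox flg22 1, IMA1ox flg22 2, IMA1ox untreated 1, IMA1ox untreated 2, WT flg22 2 and WT untreated 2 (adjusted p up to 0.088), KIN1 without 1 library in 7 of 12 cases, all but IMA1ox flg22 3, IMA1ox untreated 1, IMA1ox untreated 3, WT flg22 1 and WT untreated 2 (adjusted p up to 0.0956) and AT5G22860 without 1 library in 9 of 12 cases, all but IMA1ox flg22 3, IMA1ox untreated 1 and WT untreated 1 (adjusted p up to 0.137). Without the 2 libraries that stood apart CYP78A8 had -0.95 (adjusted p = 0.0581), KIN1 -1.47 (adjusted p = 0.113), AT2G39980 -1.31 (adjusted p = 0.103) and AT5G22860 -0.89 (adjusted p = 0.147). In the fit of the 12 libraries alone AT2G41810, AT3G49960, KIN1, AT2G39980 and AT5G22860 lost the call.

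The core of the flg22 response, chosen from Fe-sufficient WT libraries outside the 12, is given beside the share of all genes called. Of 558 genes (2.74%) that flg22 raised at least 2-fold there, 22 (3.94%) had a higher and 2 (0.358%) a lower difference, and their median flg22 effect was 1.51 in IMA1ox and 1.32 in WT. Of 607 genes (2.98%) lowered at least 2-fold, 13 (2.14%) had a higher and 1 (0.165%) a lower difference, with medians of -1.12 in IMA1ox and -1.23 in WT. Over all genes 2.07% had a higher and 0.801% a lower difference, so the share with a higher difference was above that of all genes for the raised set and near it for the lowered set.

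With Fe, where 12 other libraries give the same difference, 176 genes (0.865%) were called, 81 higher (0.398%) and 95 lower (0.467%). That is fewer than the 585 under Fe deficiency in the fit of all libraries. In fits of only the groups compared the order was reversed, with 322 called with Fe and 199 under Fe deficiency. Of the 422 genes higher under Fe deficiency, 17 (4.03%) were called higher and 1 lower with Fe, and 307 (72.7%) had a positive value, beside 50.9% of all genes. Of the 163, 8 (4.91%) were called lower and 1 higher with Fe. The difference under Fe deficiency minus that with Fe was tested for every gene, and 105 (0.516%) passed, 69 higher (0.339%) and 36 lower (0.177%). Leaving out IMA1ox flg22 1 gave 288 and leaving out Fe-sufficient WT flg22 1 gave 33. For the difference with Fe, leaving out Fe-sufficient WT untreated 2 gave 49. On the regulator list 0 of 17 were called with Fe (median 0.18), and on the FIT list 1 of 18, MTP3 (median 0.50). The test between Fe supplies itself passed for 3 of the 17 (median 1.07) and for 2 of the 18 (median 0.86), with 0 lower on either list. For the other members a difference between Fe supplies was not called.

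BTS, called under Fe deficiency, had a difference of 0.00 ± 0.13 (adjusted p = 0.996) with Fe, and the test between Fe supplies gave 1.07 ± 0.19 (adjusted p = 0.00638). HMA3 had 0.15 ± 0.35 (adjusted p = 0.887) with Fe and 2.17 ± 0.48 (adjusted p = 0.0347) between supplies. For bHLH39 the value with Fe was 0.68 ± 0.42 (adjusted p = 0.472), and the test between supplies gave 1.48 ± 0.56 (adjusted p = 0.323). PER5 and PER4 had the other sign with Fe, -2.22 ± 0.76 (adjusted p = 0.167) and -1.22 ± 0.42 (adjusted p = 0.17), and the tests between supplies gave 7.4 ± 1.18 (adjusted p = 0.00297) and 4.02 ± 0.64 (adjusted p = 0.00297). Among genes past the test with at least 5 CPM, the largest values between supplies were those of PER5, AT2G30660 and AT3G03670 on the higher side and G3Pp2 (AT4G25220), scpl5 and RSL2 on the lower side.

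**Figure D5:**
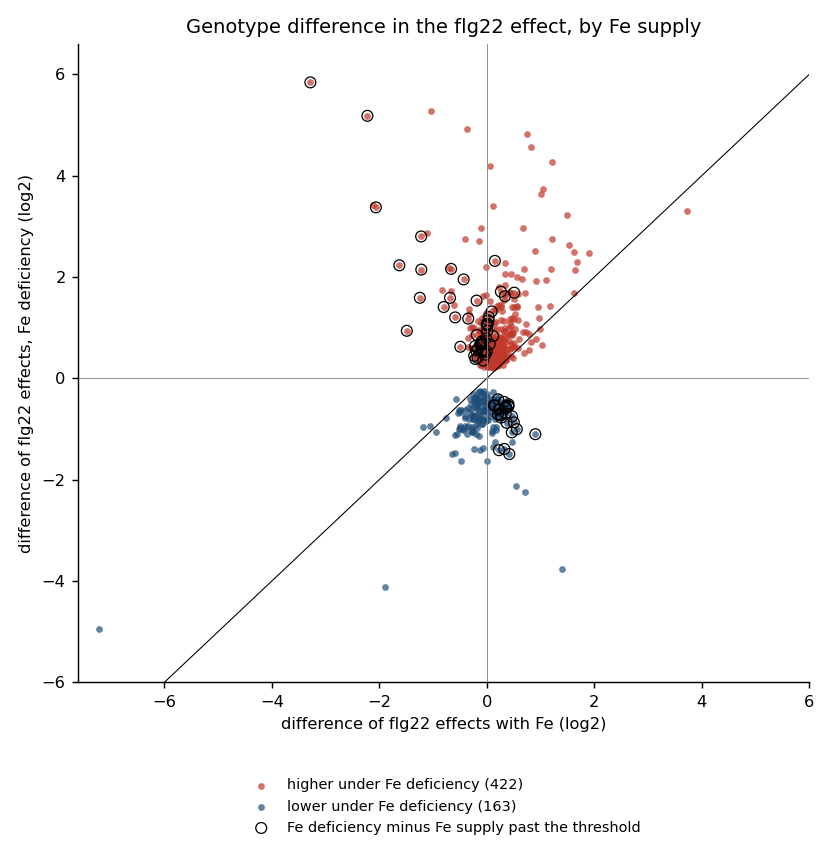
Difference of flg22 effects (IMA1ox minus WT, log2) under Fe deficiency on the y axis and with Fe on the x axis, for the 422 higher (red) and 163 lower (blue) genes; the line marks equal values and circles mark genes past the test between Fe supplies. Most points lie near 0 on the x axis, and PER5, AT3G03670 and PER4, which are circled, have negative values with Fe.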

How the data were processed

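RNA of Fe-deficient roots was sequenced in the 12 libraries compared here, and the groups come from the labels. The authors deposited raw counts per locus and the same counts as normalised CPM, a signal equal to the counts times 1 constant per library. STAR 2.7.0a, edgeR 3.36.0 and the build TAIR10 are named in the submitters' processing notes, while the counter and its strand setting are not given in the sources used here, so reads of overlapping antisense genes cannot be told apart. Library totals of the 12 ran from 28130566 to 36839145 counts, and a standard error given with a difference holds both counting error and the spread between pools.

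Of 24532 loci, 1161 had no count and 20354 passed filterByExpr of edgeR (minimum count 10). Counts of all 36 libraries were fitted with edgeR 4.0.16 in R 4.3.3, using TMM factors (0.967 to 1.05), 1 mean per group (12 groups, 24 residual degrees of freedom) and the robust quasi-likelihood F-test. p-values were adjusted by Benjamini-Hochberg over all 20354 genes for each of the comparisons, and the test was checked on simulated data. Symbols and product names are from RefSeq, which matched 24528 loci. Alternatives were DESeq2 1.42.0, limma-trend of limma 3.58.1 on log2 of the deposited CPM plus 1, other scalings and filters, the replicate number as a block over all libraries or within Fe-deficient IMA1ox, a 2-fold minimum, fits of the compared groups alone, and each library left out. Leaving out both libraries that stood apart and the block within Fe-deficient IMA1ox were chosen after seeing the data. The deviations of same-numbered libraries from their group means correlated over 0.1 in all 3 pairs only between Fe-deficient IMA1ox with and without flg22 (0.138, 0.104 and 0.136), among 6 pairs of groups. The block within Fe-deficient IMA1ox was taken from these values, since the labels state no shared batch. Differently numbered libraries were not compared, so whether the numbers mark pairs was not tested.

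The text names the 12 largest differences in each direction among called genes with at least 5 CPM in 1 of the 4 groups, up to 4 called members of each of 25 lists, and a set of Fe and immunity genes. ZIF1, BTSL1, BTSL2, FRO3, IREG2, NRAMP1 and PDR9 were added after their values were seen. For the test between Fe supplies it names the 3 largest values in each direction among genes past the test with that level. The genes and lists were chosen with earlier results of these data known. Some list genes are not reported here.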

Additional observations from a re-analysis of the deposited data

Results flagged for a closer look

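The difference of flg22 effects between IMA1ox and WT was itself different under Fe deficiency and with Fe for 105 genes, by the edgeR quasi-likelihood test of that contrast with Benjamini-Hochberg adjustment. PER5, a peroxidase, had the largest value among called genes with at least 5 CPM, 7.40 ± 1.18 (adjusted p = 0.00297), from 5.18 under Fe deficiency and -2.22 with Fe. It held 8 counts in all in untreated Fe-deficient IMA1ox, and its value with limma-trend on log2 of CPM plus 1 was 2.82. PER4 had 4.02 ± 0.64 (adjusted p = 0.00297), from 2.80 and -1.22. AT3G03670, another peroxidase family gene, had 5.44 ± 1.11 (adjusted p = 0.0275), from 3.38 and -2.06, and AT2G30660, whose product RefSeq places in the Clp protease and crotonase family, had 5.5 ± 1.26 (adjusted p = 0.0428), from 1.90 and -3.60. The Fe genes HMA3 and BTS had 2.17 ± 0.48 (adjusted p = 0.0347) and 1.07 ± 0.19 (adjusted p = 0.00638), with values near 0 with Fe. PDC2, of fermentation, had 0.53 ± 0.13 (adjusted p = 0.0488).

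On the lower side, the root hair gene G3Pp2 (RefSeq: root hair specific 15) had -2.90 ± 0.66 (adjusted p = 0.0411), from -1.38 under Fe deficiency and 1.52 with Fe. The root hair gene RSL2 had -1.91 ± 0.40 (adjusted p = 0.0275), from -1.49 and 0.42. scpl5 had -2.01 ± 0.31 (adjusted p = 0.0013), GPAT7 -1.64 ± 0.38 (adjusted p = 0.0385) and VTL2 -1.56 ± 0.37 (adjusted p = 0.0427). With 1 library left out the values ran from 4.61 to 6.07 for AT2G30660 and from -3.48 to -2.62 for G3Pp2, and the call was lost in 19 and 18 of these 24 fits. AT3G03670 had 4.21 to 5.82 and RSL2 -2.16 to -1.78, with the call lost in 5 and 4 of the 24 fits (adjusted p up to 0.064 and 0.0616). AT3G03670 and G3Pp2 lost the call in the fit of the 24 libraries alone. With limma-trend AT3G03670 and AT2G30660 did, and AT2G30660 also with no filter on low counts and with the replicate block within Fe-deficient IMA1ox (adjusted p = 0.0551). The limma-trend values were 3.18 for AT2G30660 and 2.57 for AT3G03670, and -2.70 for G3Pp2, -1.66 for scpl5 and -1.68 for RSL2. A cause was not tested for any of these values.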

How the results depend on the processing

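The count of genes for the difference under Fe deficiency stayed within 1.5 times of 585 with DESeq2 size factors, totals alone, no filter, a stricter filter, DESeq2, limma-trend and without both libraries that stood apart, the last chosen after seeing the data. A 2-fold minimum left 146 genes for it, 1270 and 1044 for flg22 in IMA1ox and in WT, 303 and 267 for IMA1ox against WT with and without flg22, 78 for the difference with Fe and 60 between supplies. Fits of only the groups compared gave 199 for the difference, 767 and 1025 for IMA1ox against WT with and without flg22, 322 with Fe and 62 between supplies. DESeq2 called 390 with Fe and 270 between supplies, where 792 adjusted p were not given, and 279 passed between supplies without both libraries that stood apart. Leaving out 1 library at a time gave 310 to 685 for the difference, 6237 to 9378 and 5522 to 7303 for flg22 in IMA1ox and in WT, 1391 to 2106 and 1574 to 2182 for IMA1ox against WT with and without flg22, 49 to 151 with Fe and 33 to 288 between supplies. The causes were not tested. Over 18 pairs of same-numbered libraries the correlation of deviations from the group means ran from -0.399 to 0.138 (median -0.021, 16238 genes), with 5 over 0.1. All 3 values were over 0.1 between Fe-deficient IMA1ox with and without flg22, and not in any of the other 5 pairs of groups. Differently numbered libraries were not compared, so whether the replicate numbers mark pairs was not tested. A fit with the replicate block called 617 genes, or 622 with the block within Fe-deficient IMA1ox alone. IMA1ox against WT was not read from that last fit. Of 66 called genes named, 41 kept the call with every library left out, 33 lost it in the fit of the groups compared, 20 without both libraries that stood apart, 5 with limma-trend, 2 with the block over all libraries, 3 with that within Fe-deficient IMA1ox, 2 with totals alone and 1 with no filter. The 66 include ZIF1, BTSL1, BTSL2, FRO3, IREG2, NRAMP1 and PDR9, which were added after their values were seen. These kept the call in all of these fits and so raise the share that did. Among genes not called, IRT1 passed with DESeq2 and in the fit of the groups compared, and MYB72 and IMA3 passed with limma-trend. FRK1, not called either, had 0.47 without both libraries that stood apart, and with 1 library left out values ranged over 0 for IMA2 (-0.15 to 0.58), NAS4 (-0.44 to 0.69), MYB51 (-0.20 to 0.25), BIK1 (-0.01 to 0.10), FRK1 (-0.86 to 0.30) and WRKY33 (-0.28 to 0.06). Depth limits PER5, AT3G03670, IMA3 and AT2G41810, which had under 30 counts in all in untreated IMA1ox.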
